A study of Mus musculus with 6 samples.

Results

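A set of 10 genes that mark mast cells, basophils and eosinophils were followed through breast tumors of mice that lacked their own lymphocytes and had received CD4+ T cells. The set was fixed by gene name. It held the mast cell granule proteases *Cpa3*, *Cma1*, *Mcpt4* and *Tpsb2*, the IgE receptor chains *Fcer1a* and *Ms4a2* and the histamine-forming enzyme *Hdc*, together with the eosinophil genes *Epx*, *Siglecf* and *Ear2*. These were 10 genes beside 18460 genes listed in at least 1 of the 6 tumors, and 9 of the 10 were among the listed genes. Whole-tumor RNA had been sequenced from 3 test and 3 control tumors. Test mice carried K14-TSLPtg, a transgene that places the cytokine TSLP under the keratin 14 promoter of keratinocytes, in addition to PyMTtg, a mammary tumor oncogene driven by the MMTV promoter. Control mice carried PyMTtg alone. Both groups were Rag1KO on the Balb/c strain, so that neither made T or B cells of its own, and both were given CD4+ T cells at 4 weeks of age. The hosts kept their innate leukocytes, mast cells and granulocytes included. Tumors were taken at the endpoint, 18 to 20 weeks of age. The question for these genes was whether the RNA of 3 leukocyte types tied to type 2 immunity differed between tumors with and without TSLP overexpression in the skin.

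Mast cells are resident tissue leukocytes that store histamine, heparin and proteases in granules and release them when antigen crosslinks IgE on the high-affinity receptor FcεRI. Their proteases differ by site, since mast cells of connective tissue hold carboxypeptidase A3, the chymases encoded by *Cma1* and *Mcpt4* and tryptase, whereas mucosal mast cells hold the chymases encoded by *Mcpt1* and *Mcpt2*. Basophils are blood granulocytes that share FcεRI and histamine with mast cells but carry the protease *Mcpt8*. Eosinophils are blood and tissue granulocytes whose granules hold peroxidase, major basic protein and ribonucleases of the Ear family. TSLP is an epithelial cytokine known to act on all of these cells as well as on dendritic cells and T helper 2 cells.

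Test replicate 2 held the highest count of *Cpa3*, *Cma1*, *Mcpt4*, *Tpsb2* and *Ear2*. No window was available for *Tpsb2*, and that of *Ear2* is not printed. The starting sequences of the other 3, all granule protease genes, are given here. All are the 250 bases before the annotated start from RefSeq on GRCm38.p6, minus strand, written 5′ to 3′, and capitals mark a match to the letters of a GATA factor site (the letters AGATAA or else TGATAA or else AGATAG or else TGATAG, on either strand). The windows are chr3:20242182-20242431 for *Cpa3*, chr14:55944676-55944925 for *Cma1* and chr14:56062311-56062560 for *Mcpt4*. The start used for *Cpa3* lies inside the gene span given below, so its window overlaps that span. The windows of *Fcer1a*, *Ms4a2* and *Hdc*, which are not printed, also overlap the spans of their genes.
Cpa3: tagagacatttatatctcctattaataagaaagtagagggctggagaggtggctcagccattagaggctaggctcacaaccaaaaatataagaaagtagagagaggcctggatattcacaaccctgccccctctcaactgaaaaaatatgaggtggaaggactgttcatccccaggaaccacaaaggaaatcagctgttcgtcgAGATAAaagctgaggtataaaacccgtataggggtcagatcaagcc
Cma1: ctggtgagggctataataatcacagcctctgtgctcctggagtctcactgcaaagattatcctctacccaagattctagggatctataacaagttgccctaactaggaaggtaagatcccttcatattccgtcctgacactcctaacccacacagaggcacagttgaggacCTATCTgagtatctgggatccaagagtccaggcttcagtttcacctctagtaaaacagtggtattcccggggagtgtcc
Mcpt4: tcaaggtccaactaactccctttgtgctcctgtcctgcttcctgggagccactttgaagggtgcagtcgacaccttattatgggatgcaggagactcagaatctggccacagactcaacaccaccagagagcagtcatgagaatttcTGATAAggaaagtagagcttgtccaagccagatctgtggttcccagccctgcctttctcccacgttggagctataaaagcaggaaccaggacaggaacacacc
The match lay 46 bases before the start of *Cpa3*, 79 before that of *Cma1* and 103 before that of *Mcpt4*, counted to its 5′ end. Of the 9 members with a window in the table, 6 held such a match, namely these 3 and *Fcer1a*, *Ms4a2* and *Hdc*, and *Ms4a2* held 3 matches. The windows of *Epx*, *Siglecf* and *Ear2* held none. Of all 32851 windows of this length, 26.5% held the GATA letters. E-box letters (CACGTG or else CATGTG or else CACATG, on either strand) were present in the windows of 2 members, *Fcer1a* and *Siglecf*, beside 17.6% of all windows, and no E-box match overlapped a GATA match in a member. A match of letters is a description of the window and not a binding site.

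The libraries held 8373390 to 9449565 expected counts each. Counts and FPKM (the authors' level of a gene, scaled to its length and to the library size) are given below in the order control replicate 1, 2 and 3 and then test replicate 1, 2 and 3, and CPM is the count scaled to a library total adjusted by TMM, with no correction for length. A count of 3, taken as the floor of detection in a library, corresponded to 0.318 to 0.365 CPM. A gene without reads was not listed in a tumor and was set to 0. Of 21031 RefSeq protein-coding genes with a curated transcript, 19.8% were not listed in any tumor, so that a gene listed nowhere may have had no reads or may not have been in the annotation used for counting, which cannot be told apart. *Tslp* had 2, 2 and 3 counts in control and 12, 7 and 2 in test tumors, so the groups overlapped (exact two-sided permutation test, p = 0.4). *Rag1*, altered in all of these mice, had 27, 4 and 10 and then 6, 12 and 9 counts. In tumor RNA, fewer cells of a type and less RNA per cell cannot be told apart. Per the study, the tumors came from separate mice.

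The mean level of every member was low against the rest of the transcriptome. By length-scaled FPKM, averaged over the 6 tumors, the order was *Cma1* (1.04 ± 1.07, SD, n = 6), *Mcpt4* (1.03 ± 1.36), *Tpsb2* (0.983 ± 1.11), *Hdc* (0.895 ± 1.14), *Ear2* (0.573 ± 0.482), *Cpa3* (0.360 ± 0.496), *Siglecf* (0.103 ± 0.208), *Fcer1a* (0.0583 ± 0.0993) and *Ms4a2* (0.00667 ± 0.0163), with *Epx* not listed. Each neighboring pair in this order differed by less than the SD of the higher member. The mean FPKM of *Cma1* lay below that of 69.5% of all listed genes, and that of *Ms4a2* below that of 99.0%. Only *Hdc* passed the filter on low counts, which kept 13706 genes, and the other 9 members are therefore described by their counts, with exact 95% Poisson intervals that cover counting error alone.

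**Figure D1:**
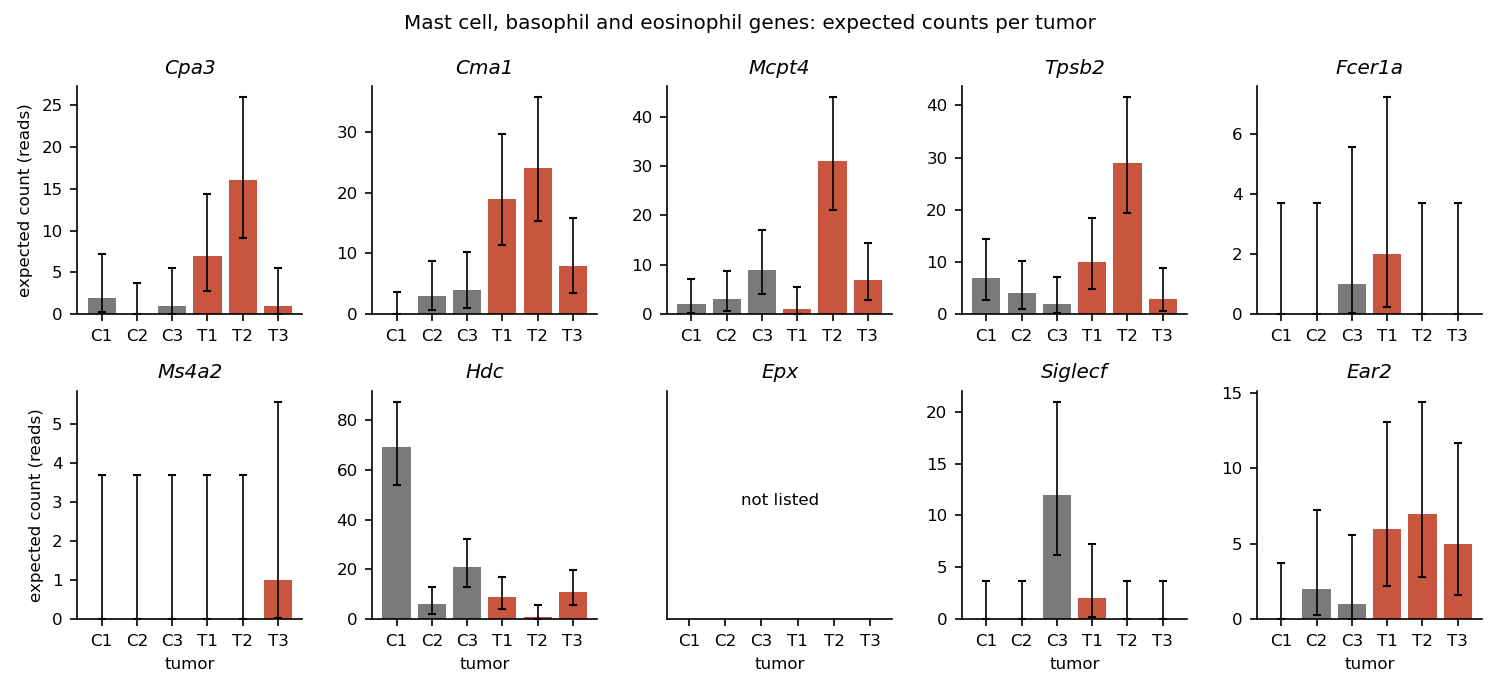
Expected counts of the 10 members in each tumor, with 1 panel per gene, the count on the vertical axis (each panel has its own scale, starting at 0) and the tumors on the horizontal axis (C1 to C3, control replicates 1 to 3, gray; T1 to T3, test replicates 1 to 3, red). Bars are counts and lines are exact 95% Poisson intervals. T2 is the highest tumor for *Cpa3*, *Cma1*, *Mcpt4*, *Tpsb2* and *Ear2*, C1 for *Hdc* and C3 for *Siglecf*, and *Epx* was not listed.

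Among the granule proteases, the chymase gene *Cma1* (gene ID 17228, chr14:55941451-55944675, minus strand) had the largest difference of the members in mean log2(CPM + 0.5), although the ratio of summed counts was larger for *Cpa3*. It had 0, 3 and 4 counts in control tumors and 19, 24 and 8 counts in test tumors. Every test tumor was above every control tumor. The mean was 1.99 ± 1.05 CPM in test and 0.250 ± 0.222 CPM in control (SD, n = 3 each), a difference of 1.67 in mean log2(CPM + 0.5), with p = 0.1 in the exact two-sided permutation test, the smallest p that 3 against 3 tumors allow. Summed over the tumors, 51 counts in test against 7 in control gave a ratio, scaled to library size, of 7.56 with a 95% counting interval of 3.42 to 19.8. With each tumor left out in turn, this ratio ranged from 5.16 to 11.6, the latter without control replicate 3. When edgeR was run with no filter on low counts, the log2 fold change of *Cma1* was 2.89 (SE 1.05) with an adjusted p of 0.495 and an unadjusted p of 0.0224. In that fit, 8.04% of all genes had an unadjusted p under 0.05, and 3.08% had one with test higher.

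*Cpa3* (gene ID 12873, chr3:20215616-20242209, minus strand) encodes carboxypeptidase A3, which is stored bound to heparin with the chymases. Its counts were 2, 0 and 1 in control and 7, 16 and 1 in test tumors. Test replicates 1 and 2 were above all controls, while test replicate 3 had the same single count as control replicate 3. The mean was 0.953 ± 0.930 CPM in test and 0.112 ± 0.116 CPM in control (exact permutation test, p = 0.3). The 24 against 3 summed counts gave a ratio of 8.30 with a counting interval of 2.52 to 43.1, and without test replicate 2 the ratio was 4.02 with an interval of 0.965 to 23.5. The ratio was 5.49 without control replicate 2 and 17.0 without control replicate 1.

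The tryptase gene *Tpsb2* (gene ID 17229, chr17:25366308-25368096) encodes a trypsin-like protease of mast cell granules. It had 7, 4 and 2 counts in control and 10, 29 and 3 in test tumors. The ranges overlapped because test replicate 3 fell among the controls. The mean was 1.67 ± 1.67 CPM in test and 0.484 ± 0.301 CPM in control (exact permutation test, p = 0.3). The summed counts, 42 against 13, gave a ratio of 3.35 (1.77 to 6.81), which was 1.51 (0.644 to 3.53) without test replicate 2.

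*Mcpt4* (gene ID 17227, chr14:56059744-56062310, minus strand), the chymase typical of connective tissue mast cells, had 2, 3 and 9 counts in control and 1, 31 and 7 in test tumors. Test replicate 2 alone was above the controls, and test replicate 1 had the lowest count of the 6 tumors. The mean was 1.54 ± 1.96 CPM in test and 0.504 ± 0.395 CPM in control (exact permutation test, p = 0.7). The 39 against 14 summed counts gave a ratio of 2.89 (1.54 to 5.76), and without test replicate 2 the ratio was below 1, at 0.862 (0.313 to 2.20). Without control replicate 3 it was 5.31. The difference between the groups in *Mcpt4* thus rested on a single tumor.

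*Cma1* and *Mcpt4* are the outer genes of a cluster of 6 protein-coding genes on chromosome 14 (chr14:55941451-56062310). Inside it lie the mucosal mast cell chymases *Mcpt1* and *Mcpt2*, which were seen in control replicate 1 alone, with 2 and 3 counts (below 30 in sum, and named after their values were seen). *Cma2* and *Mcpt9*, also in the cluster, were not listed in any tumor. The transcripts of *Mcpt4* share 5.48% of their 50-base windows with another gene, all with *Cma2*, and those of *Cma1* share 5.38% with the gene model Gm48934, while *Cpa3* and *Tpsb2* share none. All member counts were whole numbers.

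**Figure D2:**
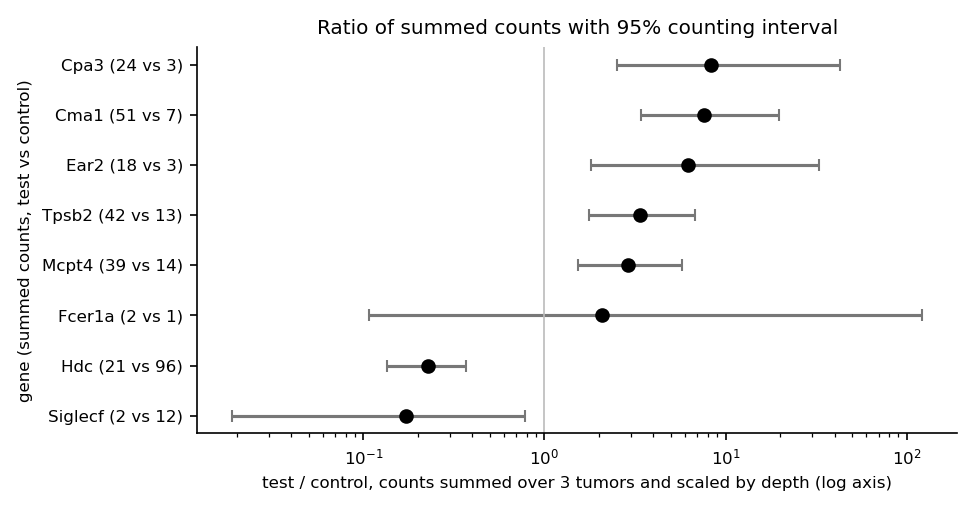
Ratio of the summed counts of 3 test tumors to those of 3 control tumors, scaled to library size, on a log axis. Points are ratios and lines are 95% counting intervals, which do not include the spread between tumors. The intervals of *Cpa3*, *Cma1*, *Mcpt4*, *Tpsb2* and *Ear2* lie above 1, those of *Hdc* and *Siglecf* below 1, and *Fcer1a*, with 2 against 1 counts, spans both sides. *Ms4a2* (0 control counts) and *Epx* (not listed) have no ratio.

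Taken as a sum per tumor, the 4 proteases had 11, 10 and 16 counts in control and 37, 100 and 19 counts in test tumors, or 1.08, 1.08 and 1.72 FPKM and then 3.94, 10.7 and 1.92 FPKM. Counting intervals were 5.49 to 19.7, 4.80 to 18.4 and 9.15 to 26.0 in control and 26.1 to 51.0, 81.4 to 122 and 11.4 to 29.7 in test tumors. Test replicates 1 and 2 lay above the intervals of all controls, whereas the interval of test replicate 3 overlapped each of them. With *Fcer1a*, *Ms4a2* and *Hdc* added, the sum over the 7 mast cell and basophil members was 9.24, 1.73 and 4.04 CPM in control and 5.52, 12.3 and 3.29 CPM in test tumors, and the groups overlapped. In that sum, *Hdc* gave 69 of the 80 counts of control replicate 1, and 1 of the 101 counts of test replicate 2.

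**Figure D3:**
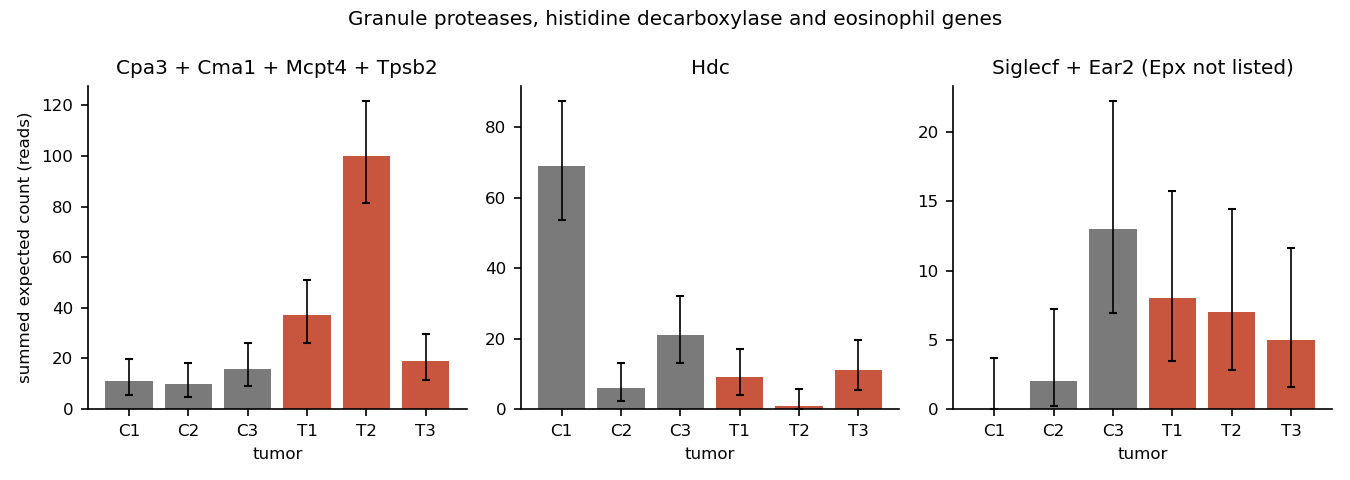
Expected counts per tumor of the 4 granule proteases summed (left), of *Hdc* (middle) and of *Siglecf* and *Ear2* summed (right), on axes that start at 0 and have their own scale in each panel. Bars are counts and lines exact 95% Poisson intervals (C1 to C3, control, gray; T1 to T3, test, red). The proteases reach 100 counts in T2, 37 in T1 and 10 to 19 in the other tumors, whereas *Hdc* is highest in C1, at 69, and lowest in T2, at 1.

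The leukocyte content of the tumors was not even. Summed over *Ptprc*, *Cd52*, *Coro1a* and *Laptm5*, pan-leukocyte genes, the level was 118, 73.6 and 133 FPKM in control and 44.7, 104 and 106 FPKM in test tumors. Set against this, the protease FPKM was 0.917%, 1.47% and 1.29% of the leukocyte FPKM in control and 8.81%, 10.4% and 1.81% in test tumors. Every test tumor was above every control tumor, as it also was in the sum of protease FPKM without this denominator, by 1.92 against 1.72 FPKM at the nearest. The share of other gene sums that separate in this way was not computed. The denominator was chosen after the values were seen.

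Other tissue in the specimens moved with the proteases in part. Skeletal muscle genes, 10 of 10 with counts, summed to 5.03, 118 and 3.93 FPKM in control and 622, 129 and 68.8 FPKM in test tumors, and 7 of 7 adipocyte genes to 37.1, 23.2 and 33.1 and then 499, 135 and 24.7 FPKM. Mast cells of connective tissue are found in both tissues. The 5 fibroblast genes summed to 146, 487 and 304 FPKM in control and 324, 753 and 310 FPKM in test tumors. As with the proteases, test replicate 2 had the highest sum, mostly from *Col1a1* and *Col1a2*, at 404 and 232 FPKM there. The other fibroblast genes did not peak in it. *Dpt* and *Dcn* were highest in test replicate 1, and *Pdgfra*, at 2.99 FPKM in test replicate 2, was below every control (4.04 to 5.66 FPKM). Test replicate 1 was highest in muscle and fat, and test replicate 2 had 10.7 FPKM of protease RNA with less of both. The 5 epithelial genes ranged from 866 to 2015 FPKM in control and from 2622 to 2788 FPKM in test tumors, with no overlap. Of 8 epidermal and hair follicle genes 7 had counts, with sums of 13.97 to 265 FPKM in control and 102 to 157 FPKM in test tumors. Most of each sum came from the keratin genes *Krt5* and *Krt14*. *Krt1* had at most 4 counts outside test replicate 3, where it had 72. *Lor* had at most 13 counts in any tumor, and *Flg2* was not listed. The endothelial genes summed to 21.0 to 29.8 FPKM in control and 21.0 to 29.7 FPKM in test tumors. The part of these tissues in the protease values was not tested.

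**Figure D4:**
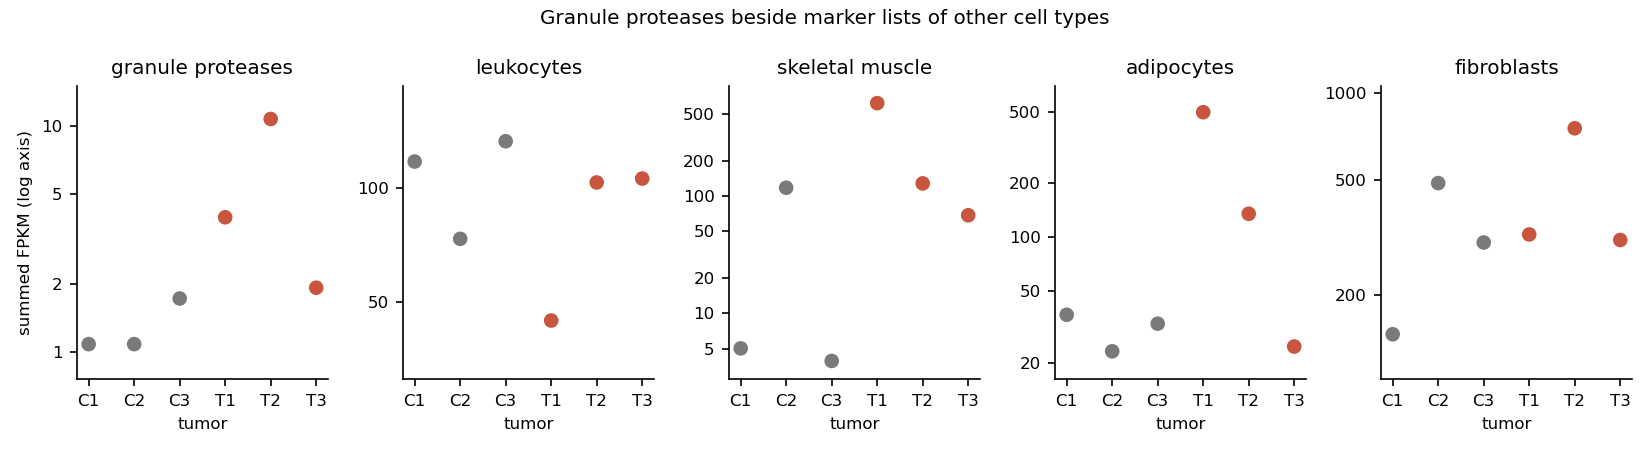
Summed FPKM in each tumor, on log axes with a scale of their own in each panel, of the 4 granule proteases and of the leukocyte, skeletal muscle, adipocyte and fibroblast marker lists (C1 to C3, control; T1 to T3, test). The protease and fibroblast sums are highest in T2, at 10.7 and 753 FPKM, the latter mostly from *Col1a1* and *Col1a2*. Muscle and adipocyte sums are highest in T1, and T1 has the lowest leukocyte sum, 44.7 FPKM.

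Of 20 further mast cell genes, 18 had counts and 8 passed the filter, and 0 of the 8 passed the edgeR test at an adjusted p of 0.05, beside 0.0% of all 13706 genes tested. Their log2 fold changes were above 0 for 3 and below 0 for 5, with a median of −0.16 beside 0.02 for all genes tested. *Kit*, the receptor for stem cell factor on which mast cells depend, was far above any other gene of the list, at 24.5, 49.8 and 30.2 FPKM in control and 98.0, 27.6 and 84.5 FPKM in test tumors (log2 fold change 1.01, SE 0.476, edgeR adjusted p = 0.641). *Kit* is also a gene of mammary luminal cells. Its level did not follow the proteases, since test replicate 2, with the most protease counts, had the lowest *Kit* level of the test group. *Ndst2*, which sulfates the heparin of mast cell granules, had an edgeR log2 fold change of −0.40 (adjusted p = 0.756), and *Rab27b*, a regulator of granule release, one of 0.59 (adjusted p = 0.700). *Mitf*, a transcription factor needed for mast cell differentiation, had 105, 48 and 138 counts in control and 133, 29 and 66 in test tumors, with overlapping groups. The gene *Slc18a2*, whose product loads histamine and serotonin into granules, had 26, 36 and 39 counts in control and 21, 22 and 24 in test tumors, each test tumor below each control tumor (exact permutation test, p = 0.1, edgeR log2 fold change −0.53, adjusted p = 0.772).

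The alpha tryptase neighbor of *Tpsb2*, *Tpsab1*, had 6, 0 and 4 counts in control and 12, 19 and 3 in test tumors, so that the same test tumor was highest and the same test tumor lowest as for *Tpsb2*. Mast cell genes below 30 counts were picked out for naming after their values were seen. *Mrgprb1* had 16.5 counts in test replicate 2 and at most 4.05 in any other tumor, and *Mrgprb2*, the receptor for basic secretagogues on connective tissue mast cells, had its only 2 counts there. *Ctsg* and *Cd200r3* also had counts there alone, 1 and 2. *Tpsg1* had 1 count in control replicate 1 and 3 in test replicate 1. *Tph1* had 1, 2 and 0 counts in control and 0, 0 and 1 in test tumors. *Adora3*, above 30 counts in sum, had 3, 1 and 17 and then 2, 9 and 10, highest in control replicate 3.

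The IgE receptor was seen almost entirely through a subunit that it shares with other receptors. *Fcer1a* (gene ID 14125, chr1:173221269-173227232, minus strand), which encodes the IgE-binding alpha chain, had 1 count in control replicate 3 and 2 counts in test replicate 1 and was at 0 in the other 4 tumors. *Ms4a2* (gene ID 14126, chr19:11615517-11623790, minus strand), the signal-amplifying beta chain, had a single count, in test replicate 3. Both were at or under the floor of 3 counts in every tumor, and no difference between the groups was detectable at this depth. *Fcer1g*, the gamma chain, which also serves IgG receptors on macrophages and neutrophils, had 400, 185 and 386 counts in control and 122, 445 and 330 in test tumors (log2 fold change −0.06, SE 0.519, edgeR adjusted p = 0.980).

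Downstream of the receptor, 13 of 14 signaling genes passed the filter and 0 passed the edgeR test, with 3 fold changes above 0 and 10 below, and a median of −0.63 beside 0.02 for all genes tested. *Fyn*, a Src-family kinase that acts beside *Lyn* at the receptor, had 398, 262 and 735 counts in control and 106, 158 and 224 in test tumors. All test tumors were below all control tumors, and the log2 fold change was −1.47 (SE 0.434, edgeR unadjusted p = 0.0104, adjusted p = 0.454). The groups did not overlap in *Fyn*, *Btk* and *Vav1*, all lower in test, beside 5.87% of the genes tested. *Lyn*, which starts the signal, had a log2 fold change of 0.60 (adjusted p = 0.700), and the most abundant phospholipase, *Plcg2*, one of 0.08 (adjusted p = 0.969). *Ptpn6*, the phosphatase SHP-1, had a log2 fold change of −0.60 (edgeR adjusted p = 0.647). These genes act in many leukocytes, and 3 of the 4 leukocyte markers also had negative fold changes, with a median of −0.39. The summed leukocyte level overlapped between the groups, and its part in the values of the signaling genes was not tested.

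*Hdc* (gene ID 15186, chr2:126593659-126624025, minus strand), histidine decarboxylase, makes histamine. It had 69, 6 and 21 counts in control and 9, 1 and 11 in test tumors, or 3.13, 0.28 and 0.97 FPKM and then 0.45, 0.05 and 0.49 FPKM. Control replicates 1 and 3 were above every test tumor, and control replicate 2 lay within the test range. The mean was 3.62 ± 3.85 CPM in control and 0.774 ± 0.569 CPM in test (SD, n = 3 each). The edgeR log2 fold change was −2.19 (SE 1.05, unadjusted p = 0.0718, adjusted p = 0.645), and an adjusted p of 0.05 was reached by 0.0% of all genes tested. The exact permutation test gave p = 0.3. In summed counts, 21 in test against 96 in control gave a ratio of 0.227 (0.134 to 0.367), which was 0.551 (0.296 to 1.01) without control replicate 1.

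The level of *Hdc* did not follow that of the proteases. Test replicate 2 had 100 protease counts and 1 *Hdc* count, and control replicate 1 had 11 protease counts and 69 *Hdc* counts, but control replicate 2 was low in both, with 10 protease counts and 6 *Hdc* counts. *Hdc* is also made by immature myeloid cells and neutrophils. Of 8 neutrophil genes 7 had counts, *Ly6g* was not listed, and their summed level was 131, 58.8 and 60.6 FPKM in control and 31.4, 40.6 and 81.4 FPKM in test tumors, highest in control replicate 1 as for *Hdc*. *S100a9*, a neutrophil calcium-binding protein gene, had 302, 39 and 87 counts in control and 9, 19 and 155 in test tumors. *Csf3r*, the receptor for granulocyte colony-stimulating factor, had 339, 57.6 and 170 and then 34.6, 89.6 and 80.5 counts. *S100a8* had 143, 99 and 86 counts in control and 71, 51 and 111 in test tumors, also highest in control replicate 1. *Cxcr2* did not peak there, with 186, 385 and 194 counts in control and 105, 406 and 226 in test tumors, highest in test replicate 2. *Retnlg* was highest in test replicate 3 and *Camp* in control replicate 2. *Ngp* had its highest count, 10, in both control replicate 2 and test replicate 2. The part of neutrophils in the *Hdc* values was not tested. Tuft cells, epithelial cells that also carry lipid mediator enzymes, had marker sums of 9.76 to 27.3 FPKM in control and 1.07 to 5.12 FPKM in test tumors. Nearly all of this came from *Dclk1*, with 754, 538 and 1536 counts in control and 45, 219 and 61 in test tumors, whereas *Pou2f3*, *Trpm5* and *Avil* had at most 13 counts in any tumor and *Avil* had more in test replicates 1 and 2 than in any control.

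Among the eosinophil members, *Ear2* (gene ID 13587, chr14:44102654-44103531, plus strand), an eosinophil-associated ribonuclease, had 0, 2 and 1 counts in control and 6, 7 and 5 counts in test tumors. All test tumors were above all controls, although each value was small. The mean was 0.691 ± 0.161 CPM in test and 0.107 ± 0.108 CPM in control, a difference of 0.98 in mean log2(CPM + 0.5) with p = 0.1 in the exact permutation test. The 18 against 3 summed counts gave a ratio of 6.23 (1.82 to 33.0), which ranged from 4.25 without control replicate 1 to 12.4 without control replicate 2. *Ear2* has close paralogs. Of its 50-base transcript windows, 41.5% occur in another gene, most of them in *Ear10*, so its counts are uncertain as to gene, and *Ear1*, *Ear6* and *Ear10* were not listed.

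*Siglecf* (gene ID 233186, chr7:43351341-43359475, plus strand), an inhibitory sialic acid receptor of eosinophils, had 0, 0 and 12 counts in control and 2, 0 and 0 in test tumors. A single tumor, control replicate 3, held 12 of the 14 counts. The groups overlapped (exact permutation test, p = 1.0). *Siglecf* also marks alveolar macrophages, and *Ear2* is made by some macrophages and monocytes. Of 10 macrophage and monocyte genes 9 had counts and *Marco* was not listed, and their sum was 334, 244 and 469 FPKM in control and 245, 512 and 312 FPKM in test tumors, with overlapping groups. Their part in the *Siglecf* and *Ear2* counts was not tested.

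*Epx* (gene ID 13861, chr11:87863997-87875536, minus strand) encodes eosinophil peroxidase, the member most specific to eosinophils, and was not listed in any tumor. The genes of major basic protein and its homolog, *Prg2* and *Prg3*, were likewise not listed. As a sum, the 3 eosinophil members had 0, 2 and 13 counts in control and 8, 7 and 5 in test tumors. In counts the groups overlapped, through *Siglecf* in control replicate 3. By FPKM the sum was 0, 0.32 and 0.68 in control and 1.13, 1.17 and 0.76 in test tumors, and the groups did not overlap. The share of other gene sums that separate in this way was not computed. Of 12 further eosinophil genes, 7 had counts and 2 passed the filter, with 0 past the test. *Il5ra*, the receptor chain for the eosinophil growth factor IL-5, had 26.9, 26.2 and 48.0 counts in control and 19.9, 39.5 and 28.1 in test tumors (edgeR log2 fold change −0.14, adjusted p = 0.955). *Alox15*, a lipoxygenase of eosinophils and of epithelium, had 9, 70 and 6 and then 48, 33 and 16 counts (log2 fold change 0.28, edgeR adjusted p = 0.951). Chosen after its values were seen, *Rnase2a*, another Ear family gene, had 10 counts in test replicate 1 and 0 in the other tumors, and *Ccr3*, the eotaxin receptor, had a single count, in control replicate 2.

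Basophils were close to undetected through the protease that sets them apart from mast cells. Chosen after its values were seen, *Mcpt8*, the basophil protease, had 1 count in control replicate 2 and 1 in test replicate 3. *Prss34*, *Il4* and *Il13* were not listed in any tumor. Of 8 basophil genes 5 had counts and 3 passed the filter, with 0 past the edgeR test. The IL-3 receptor chain gene *Il3ra* had 38, 19 and 54 counts in control and 31, 77 and 49 in test tumors (log2 fold change 0.57, edgeR adjusted p = 0.801). *Itga2b*, an integrin of platelets and basophils, had a log2 fold change of 0.02 (edgeR adjusted p = 0.996). *Gata2*, a transcription factor of mast cells and basophils, had 11, 136 and 6 counts in control and 39, 89 and 11 in test tumors, with neither the groups apart nor the order of the proteases (log2 fold change −0.01, edgeR adjusted p = 0.999).

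Enzymes of lipid mediators, which activated mast cells and eosinophils release as leukotrienes and prostaglandin D2, all passed the filter. Of these 9 genes 0 passed the edgeR test, 3 had log2 fold changes above 0 and 6 below, and the median was −0.45. *Ltc4s*, leukotriene C4 synthase, had 3, 1 and 18 counts in control and 13, 33 and 10 in test tumors, highest in test replicate 2 as were the proteases (log2 fold change 1.44, SE 1.00, edgeR adjusted p = 0.732). *Hpgds*, the hematopoietic prostaglandin D2 synthase, had a log2 fold change of −0.53 (adjusted p = 0.820). *Alox5ap*, which presents arachidonic acid to 5-lipoxygenase, and *Ptges*, a prostaglandin E synthase, had log2 fold changes of −0.16 and 0.40 (edgeR adjusted p = 0.952 and 0.854). *Lta4h* and *Pla2g4a*, which act in leukotriene B4 synthesis and in the release of arachidonic acid, had log2 fold changes of −0.45 and −1.05 (edgeR adjusted p = 0.675 and 0.709).

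Signals that feed or attract these cells were measured in the same tumors. Of 17 genes 15 had counts, 10 passed the filter and 0 passed the edgeR test, with 4 log2 fold changes above 0 and 6 below and a median of −0.10. *Kitl*, which encodes stem cell factor, had 940, 283 and 857 counts in control and 1225, 300 and 529 in test tumors (log2 fold change 0.02, adjusted p = 0.995). Its lowest counts were in control replicate 2 and test replicate 2. *Ccl8*, a chemokine for eosinophils and T helper 2 cells, had 38, 43 and 122 counts in control and 28, 377 and 156 in test tumors (log2 fold change 1.57, SE 0.879, edgeR adjusted p = 0.689), and *Ccl11*, eotaxin, had 5, 68 and 62 and then 136, 84 and 45 counts (log2 fold change 1.07, SE 0.831, adjusted p = 0.760). *Il33*, an alarmin that activates mast cells, had 141, 320 and 275 counts in control and 120, 166 and 80 in test tumors (log2 fold change −0.91, SE 0.422, edgeR adjusted p = 0.631), while its receptor *Il1rl1* had 28.1 to 44.5 counts in control and 42.2 to 53.4 in test tumors. *Crlf2*, a chain of the TSLP receptor, had a log2 fold change of −0.36 (adjusted p = 0.841). *Il3* and *Il9*, T cell cytokines for mast cells and basophils, were not listed, and *Il5*, named after its values were seen, had 2 counts, both in control replicate 3. The T cell markers summed to 69.6 to 84.5 FPKM in control and 74.5 to 93.0 FPKM in test tumors, mostly from *Gata3*, which mammary epithelium also makes, and *Trac* was not listed. *Cd4* had 19, 16 and 35 counts in control and 9, 13 and 18 in test tumors (log2 fold change −0.75, edgeR adjusted p = 0.750). Counts of *Cd3d* were 9.39, 14.3 and 12.1 and then 8.21, 20.6 and 9.99, and those of *Cd3e* were 4, 1 and 7 and then 3, 1 and 5.

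Across the 10 members, the groups did not overlap in 2, *Cma1* and *Ear2*, both higher in test. Among all listed genes, 5.53% were apart in this direction, and among the 3520 genes with 10 to 150 summed counts 6.73% were, as were 6.11% of the genes that passed the filter. No member was apart with test lower, beside 5.12% of all listed genes and 4.38% of those with 10 to 150 counts. Without test replicate 3 the number rose to 4, with *Cpa3* and *Tpsb2* added, and without control replicate 2 it was 3, with *Hdc* added. Test replicate 2 was the highest tumor for 5 of the 9 listed members, beside 27.2% of the genes with 10 to 150 counts. No member passed an adjusted p of 0.05 by edgeR, in which 0 of 13706 genes did and 8.41% had an unadjusted p under 0.05. DESeq2 called 344 of 18383 genes with an unadjusted p (1.87%), and its adjusted p was 0.194 for *Cma1* and 0.440 for *Hdc*. It gave no adjusted p for *Ear2*, *Siglecf*, *Fcer1a* and *Ms4a2*.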

How the data were processed

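RNA of 3 test and 3 control breast tumors was sequenced on an Illumina HiSeq instrument by BGI and aligned to mm10 with Bowtie, per the study's methods. The submitters' processing notes also name BWA and RSEM, with no role, and the annotation release was not given in the sources used here. The authors deposited, per tumor, an expected count (estimated reads per gene, which need not be whole), the FPKM and a gene length. Genes were matched by NCBI Gene ID to RefSeq symbols, for 18400 of 18460 genes, and genes not listed in a tumor were set to 0.

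After rounding to whole numbers, expected counts were tested with edgeR 4.0.16 in R 4.3.3 (filterByExpr, TMM, quasi-likelihood test, Benjamini-Hochberg adjustment over all 13706 genes kept, threshold 0.05). Single genes were compared by the exact two-sided permutation test on log2(CPM + 0.5), and counts carry exact 95% Poisson intervals. Intervals and the floor of 3 counts cover counting error only. Ratios of summed counts carry exact conditional binomial intervals. A group was called apart where all its tumors lay on the same side of the other group. Alternatives were DESeq2 1.42.0, limma 3.58.1 on log2(FPKM + 1) and log2(FPKM + 0.1), other size factors and filters, a replicate block and leaving out each tumor. Replicate numbers did not pair the tumors, with same-number correlations of −0.0319, 0.0999 and −0.139.

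All members were named. From each list of companion genes, the 4 of highest mean FPKM with at least 30 summed counts were named. Further companions above that minimum, and genes of the marker lists, were named after their values were seen, and companions below it are stated as such or were not listed. The members and lists were chosen with earlier results of these data known. Sequences and positions are from RefSeq on GRCm38.p6, and shared windows from GENCODE M21 transcripts.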

Additional observations from a re-analysis of the deposited data

How the results depend on the processing

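Over 109 pairs of a member and an alternative setting, the direction of the difference was kept in 106 and reversed in 3, all on leaving out a tumor. With each tumor left out in turn, the log2 difference of *Mcpt4*, 0.63 with all tumors, ranged from −0.13 without test replicate 2 to 1.27 without test replicate 1, that of *Fcer1a* 0.089 with all tumors, ranged from −0.093 without test replicate 1 to 0.18, and that of *Siglecf*, −0.43 with all tumors, from −0.73 to 0.18 without control replicate 3. In each reversal the tumor left out held most of the gene's counts. The number of genes called at an adjusted p of 0.05 was 0 by edgeR (1153 at an unadjusted p under 0.05), 344 by DESeq2 and 1 by limma on log2(FPKM + 1), and ranged from 0 to 182 when a tumor was left out, with 182 without control replicate 2. The cause was not tested. The number of members whose groups did not overlap ranged from 2 to 4. The log2 ratio of the summed mast cell and basophil members, 0.49, was 2.18 without *Hdc* and ranged from −0.18 to 1.29 when a tumor was left out. For the eosinophil members it was 0.53, 1.61 by FPKM and −2.47 without *Ear2*, and ranged from −0.058 to 2.83 when a tumor was left out. With the replicate block 0 genes were called, the lowest adjusted p was 0.558, and *Hdc* had a log2 fold change of −2.01 (edgeR adjusted p = 0.621). A minimum of 10 counts in every tumor kept 0 members, and *Ms4a2* had no value without test replicate 3. With under 10 counts in a group the counting intervals were wide, at 2.52 to 43.1 for the *Cpa3* ratio and 1.82 to 33.0 for that of *Ear2*. Moderate differences may be missed at this depth, and the smallest difference that could be seen was not computed.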

Other observations

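The tested genes whose log2(CPM + 0.5) over the 6 tumors was most like that of *Hdc* were *Zdhhc18* (Pearson r = 0.999), *Aig1* (0.998), *Erap1* (0.996), *Trp63* (0.994) and *Usp27x* (0.992). For *Ear2* they were *Dusp28* (r = 1.00), *Pdcd2l* (0.995), *Hpn* (0.993), *Lipt2* (0.993) and *Pi4k2b* (0.991). These are the 5 highest of 13706 genes over 6 tumors of 2 groups and are given as a description.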
